A study of Mus musculus with 54 samples.

Results

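The antigen receptor loci of the mouse are long arrays of gene segments from which developing lymphocytes assemble 1 receptor gene by V(D)J recombination. Igk encodes the kappa light chain and Igh the heavy chain of antibodies, Tcra/d the alpha and delta chains and Tcrb the beta chain of T cell receptors. In lymphoid cells the 2 alleles of such a locus have been reported to replicate at different times in S phase, with the earlier allele usually rearranged first; embryonic stem cells, neural precursors and fibroblasts do not rearrange them. Early replication generally goes with open, gene-rich chromatin and late replication with the nuclear periphery.

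The loci were taken by coordinates alone on mm10: Igk at chr6:67500001-70750000, Igh at chr12:113200001-116000000, Tcra/d at chr14:52400001-54300000 and Tcrb at chr6:40800001-41600000. They held 163 of the 46268 windows of 50 kb with a value, namely 65 in Igk, 53 in Igh, 30 in Tcra/d and 15 in Tcrb. Of 175 positions of 50 kb in these intervals, 12 had no window, 8 of them in the middle of the Tcra/d V array, 3 in Igh and 1 in Tcrb, and Igk had a value at every position. The RefSeq annotation of the same build lists 362 V segments, 153 V pseudogenes, 24 D segments, 85 J segments and 13 constant genes there. All 162 V genes and pseudogenes of Igk and all 35 of Tcrb lay in windows with a value, against 175 of 182 in Igh and 91 of 136 in Tcra/d.

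The assay was Repli-Seq: newly made DNA carries the base analogue BrdU from a short pulse, and it is sequenced from cells sorted as early or late in S phase. A window's value is the log ratio of early to late reads of 1 allele, so that a value above 0 means early and one below 0 late replication. Here timing means the average of both alleles, and an allelic difference is 129 minus Cas, above 0 where the 129 allele is earlier. Each value is taken over many sorted cells, so an allelic difference that changes sign from cell to cell would average out. The base of the logarithm is not given in the sources used here, and the values were read as log2.

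The 54 libraries formed 27 profiles. Embryonic stem cells (ESCs) of 5 lines carry 1 genome of the 129 strain and 1 of the cas (Mus castaneus) strain: F121, F121-6 and F121-9 (female) and F123 (male), labelled hybrid 129 / cas, and Cas129 (female), labelled hybrid cas / 129, the opposite parental configuration. All were profiled in feeder-free 2i medium, F121 with 1 profile and the others with 2, and F121-6 and F121-9 also on inactivated feeder cells, with 2 profiles each. Neural precursor cells (NPCs) were derived from Cas129 (2 profiles) and F121-9 (1 profile) and collected on day 11. Mouse embryonic fibroblasts (MEFs) came from 4 embryos of the hybrid cas / 129 cross, with 2 profiles each. The V6.5 ESC line (male, C57B6 and 129 alleles, 1 profile in 2i) and a female extraembryonic endoderm (XEN) line with C57B6 and cas alleles (2 profiles) are described without tests. The line or embryo was the unit of replication, 5 for ESCs, 2 for NPCs and 4 for MEFs. F121, F121-6 and F121-9 share part of their name, their sex and their cross, and the fits treat them as independent. Whether the profiles of 1 line came from separate cultures is not given.

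Some facts of the whole series bear on these values. The read depth is unknown, because the file holds ratios only. Autosomal column means ran from -0.67 to -0.54 in ESCs and NPCs and from -0.22 to -0.10 in MEFs and XEN cells, so the MEF scale lies above the ESC and NPC scale. MEFs of 1 cross cannot tell the strain of an allele from the parent it came from. The sex labels of embryos 1 and 3 went against the X chromosome: windows of the 129 X had an SD of 0.23 in embryo 1, labelled female, and of 0.19 in embryo 4, labelled male, against 1.29 in embryo 2, labelled female, and 1.30 in embryo 3, labelled male. Not every marker gene followed the cell type labels in its timing. Of the pluripotency genes, Dppa2, Dppa4, Nanog and Zfp42 were called later in NPCs and MEFs than in ESCs and Pou5f1 was not. The neural genes Sox1, Pax6 and Nes were not called between NPCs and ESCs. The window of the pluripotency gene Dppa2 was at 1.85 ± 0.30 (SD, n = 5) in ESCs and at -3.36 ± 0.13 (SD, n = 4) in MEFs, and that of the endoderm gene Sox17 at 2.64 in XEN cells and -2.49 ± 0.14 (SD, n = 4) in MEFs.

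Constant genes and V arrays differed sharply in 3 of the 4 loci. In Tcra/d the windows of the D, J and constant genes were early in every cell type, at 2.19 ± 0.05 (SD, n = 5) in ESCs, 1.98 ± 0.25 (SD, n = 2) in NPCs and 2.17 ± 0.11 (SD, n = 4) in MEFs, with 2.48 in XEN cells and 1.89 in V6.5. The V windows of the same locus were at 0.29 ± 0.19 in ESCs (n = 5), -0.68 ± 0.45 in NPCs (n = 2) and -0.96 ± 0.18 in MEFs (n = 4). In Igh the D, J and constant windows had 0.20 ± 0.33, 0.37 ± 0.31 and 0.84 ± 0.28 in ESCs, NPCs and MEFs, and the V windows -2.16 ± 0.18, -2.89 ± 0.17 and -2.93 ± 0.21. In Igk the window of the J segments and Igkc, the kappa constant gene, was at 0.50 ± 0.31 in ESCs, -0.60 ± 0.17 in NPCs and -0.21 ± 0.16 in MEFs, and the V windows at -2.26 ± 0.15, -2.79 ± 0.30 and -3.33 ± 0.21. Tcrb was late throughout: its constant window was at -2.13 ± 0.60, -3.15 ± 0.08 and -1.95 ± 0.07, and its V windows were at -3.14 ± 0.32, -3.36 ± 0.18 and -2.67 ± 0.06. Every line and embryo had its constant windows earlier than its V windows in each of the 4 loci, and XEN cells did in all but Tcrb, where the constant window was later than the V windows, which were at -3.58.

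**Figure D1:**
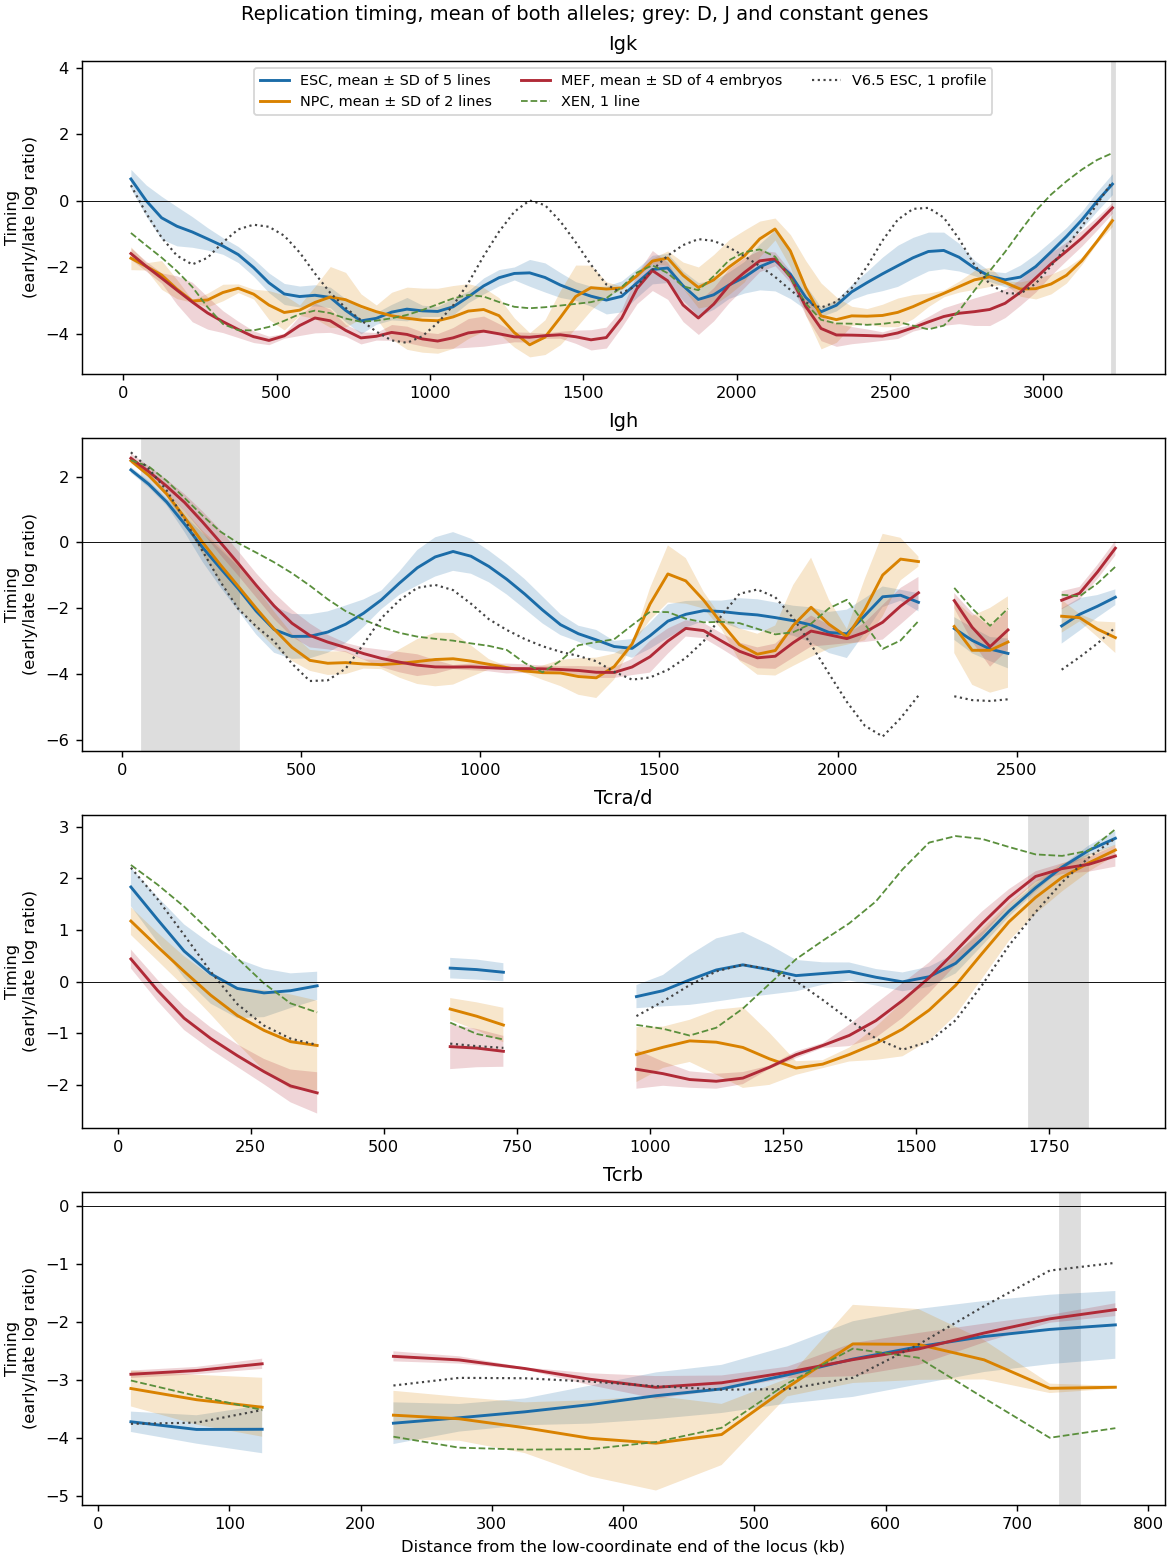
Timing (early/late log ratio, mean of both alleles) of each 50 kb window against the distance from the low-coordinate end of each locus in kb; lines are means and bands the SD over 5 ESC lines, 2 NPC lines or 4 MEF embryos, dashed and dotted lines are XEN and V6.5, gaps have no window and grey marks the D, J and constant genes. The constant ends of Igh and Tcra/d are early in every cell type, and from 650 to 1300 kb in the Igh V array ESCs average -1.37, NPCs -3.75 and MEFs -3.74.

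**Figure D2:**
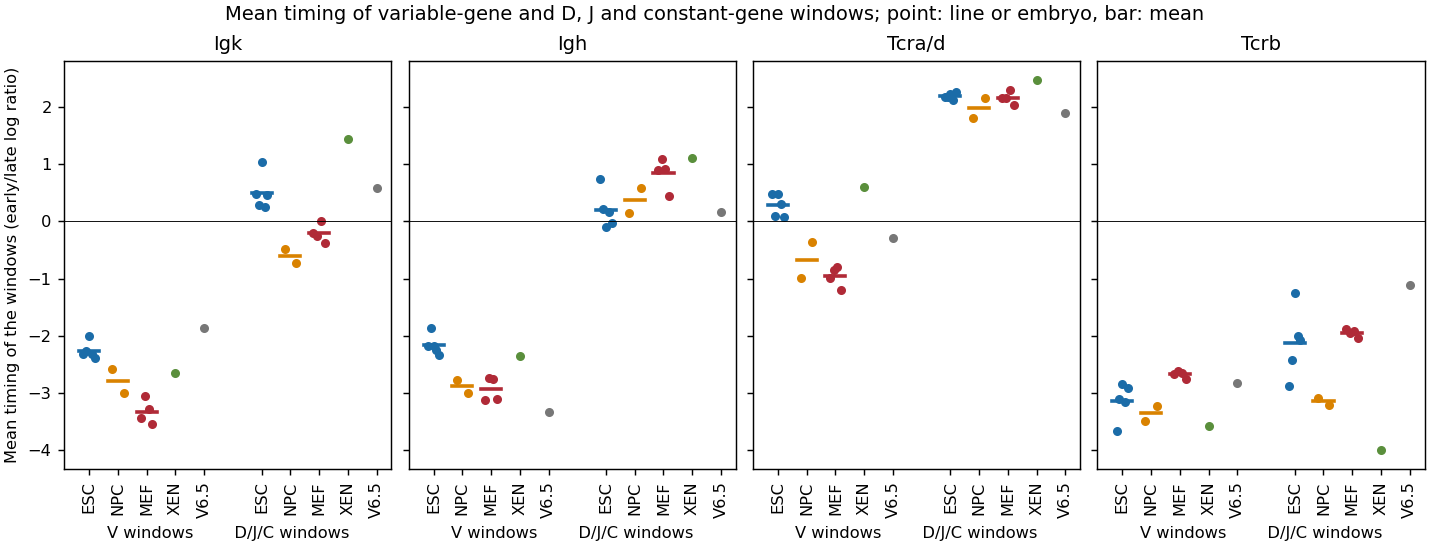
Mean timing (early/late log ratio) of the V windows and of the windows of D, J and constant genes in each locus; each point is a line or embryo and each bar the mean of a cell type, with 1 XEN and 1 V6.5 point. Tcra/d has the earliest and Tcrb the latest D, J and constant windows in ESCs, with means of 2.19 and -2.13.

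Igh descended from early to late over a few windows at its constant end in every cell type. The window at the constant end, chr12:113200001-113250000, had a mean of 2.20 in ESCs, 2.48 in NPCs, 2.56 in MEFs and 2.50 in XEN cells. Counting windows from that end, each allele of each line stayed above 0 for 4 to 6 windows in ESCs, 4 to 6 in NPCs, 5 or 6 in MEFs and 6 or 7 in XEN cells. Along this slope lie Igha and Ighe (constant regions of IgA and IgE) at 1.77 ± 0.10 in ESCs (n = 5) and 2.15 ± 0.17 in MEFs (n = 4), and then Ighm and Ighd (IgM and IgD), which share a window at -0.15 ± 0.44 and 0.62 ± 0.33. Adam6a and Adam6b are fertility genes within Igh. Adam6a lies between the D and V segments, and Adam6b within the span of the D, J and constant genes. They were at -1.41 ± 0.68 and -0.79 ± 0.57 in ESCs. Beyond the constant end, Tmem121 and Crip1 at 2.50 ± 0.13 and Pacs2 at 2.76 ± 0.41 in ESCs were earlier than every window of Igh.

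The 1 Mb on either side of Igk averaged 1.32 ± 0.11 and 1.26 ± 0.28 in ESCs (n = 5), against -2.17 ± 0.15 for Igk itself, and in MEFs (n = 4) 0.06 ± 0.10 and 0.39 ± 0.08 against -3.25 ± 0.20. Igh lay between 1.99 ± 0.22 beyond its constant end and -0.34 ± 0.24 beyond its V end in ESCs, with -1.81 ± 0.17 for the locus. Tcra/d, at 0.56 ± 0.17 in ESCs, had 1.27 ± 0.43 and 2.63 ± 0.27 beside it. Tcrb, at -3.11 ± 0.31, had -0.12 ± 0.24 before its V end and -2.64 ± 0.37 after its constant end, so that late replication ran on past Trbc2 in ESCs, while the same stretch was at -0.17 ± 0.25 in MEFs.

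Against the whole genome, the loci ranked differently by cell type. Of the 65 Igk windows, 14 fell among the latest 25% of autosomal windows in ESCs, 32 in NPCs, 54 in MEFs and 43 in XEN cells. For Igh these counts were 6, 28, 37 and 21 of 53, for Tcrb 10, 12, 12 and 14 of 15, and for Tcra/d 0 of 30 in each. Because the 25% were set within each cell type, these counts do not change when all values of a cell type shift together.

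Genes that share a window with the constant genes show both extremes. Dad1, a subunit of the oligosaccharyltransferase that glycosylates proteins, shares the window of Trac (T cell receptor alpha constant), which was at 2.54 ± 0.09 in ESCs, 2.30 ± 0.17 in NPCs and 2.27 ± 0.14 in MEFs. Prss2, a trypsinogen gene, shares that of Trbc1 and Trbc2 (T cell receptor beta constants), at -2.13 ± 0.60, -3.15 ± 0.08 and -1.95 ± 0.07. Their promoters, from 250 bases before to 50 after the start of the gene on GRCm38.p6 (RefSeq), are shown as the early and the late example. Both genes were chosen after their values were seen. Genes were placed by their midpoint, and the Dad1 promoter itself lies in the next window, which starts at chr14:54250001. That window was at 2.78 ± 0.14 in ESCs, 2.55 ± 0.10 in NPCs and 2.43 ± 0.20 in MEFs. Capitals mark each CG dinucleotide.
Dad1, chr14:54253880-54254179, minus strand: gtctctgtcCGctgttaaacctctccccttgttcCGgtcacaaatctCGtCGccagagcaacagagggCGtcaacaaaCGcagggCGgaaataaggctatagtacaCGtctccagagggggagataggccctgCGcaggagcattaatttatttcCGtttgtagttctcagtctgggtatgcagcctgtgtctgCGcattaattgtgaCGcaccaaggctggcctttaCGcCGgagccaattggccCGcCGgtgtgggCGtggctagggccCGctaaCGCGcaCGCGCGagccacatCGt
Prss2, chr6:41521526-41521825, plus strand: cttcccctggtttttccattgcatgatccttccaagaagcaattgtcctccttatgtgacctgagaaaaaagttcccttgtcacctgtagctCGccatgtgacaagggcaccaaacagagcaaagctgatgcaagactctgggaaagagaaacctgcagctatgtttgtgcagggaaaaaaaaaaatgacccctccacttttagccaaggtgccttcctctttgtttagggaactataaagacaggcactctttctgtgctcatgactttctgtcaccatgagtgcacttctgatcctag
The Dad1 promoter holds 24 CG dinucleotides and that of Prss2 holds 1, with a median of 7 over 32851 RefSeq promoters of this length, of which 94.6% hold at least 1. The 12 promoters in Tcra/d had a median of 4.5 and ran from 0 to 24, so that Dad1 is at their top. The 11 in Tcrb had a median of 0 and ran from 0 to 8. A window of 50 kb does not resolve a promoter, and the relation of CG content to timing was not tested.

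In NPCs, stretches of the V arrays of Igk, Igh and Tcra/d replicated later than in the ESCs. The stretch with the largest mean difference lay in Igh at chr12:113800001-114550000, which holds 60 annotated receptor genes: the 5 ESC lines ranged from -2.05 to -1.23 with a median of -1.48, and the NPC lines averaged -3.77 ± 0.33 (SD, n = 2). Both NPC lines lay below every ESC line there. The difference was -2.22 on average and largest in the window at chr12:114100001-114150000, at -3.26 ± 0.34 (SE; limma, adjusted p = 1.04e-06). The start of Igk, chr6:67500001-67900000 with 14 receptor genes, fell from -0.71 ± 0.36 (SD, n = 5) to -2.50 ± 0.02 (SD, n = 2). The Tcra/d stretch chr14:53350001-53850000, from Trav16n to Trav19, fell from 0.09 ± 0.34 to -1.36 ± 0.39. These SDs are between line means and leave out the spread between profiles of 1 line. Over whole loci the 2 Cas129 NPC profiles differed. In Igk they were at -3.35 and -2.18 for 129 (ESC mean -2.12) and -2.79 and -1.84 for Cas (-2.23). In Igh they were at -2.65 and -1.67 for 129 (-1.67) and -2.76 and -2.26 for Cas (-1.94). In Tcra/d they were at -1.20 and -0.53 for 129 (0.47) and -0.63 and -0.03 for Cas (0.65). F121-9 NPCs have 1 profile. A window was called where the adjusted p was below 0.05 over all 43941 autosomal windows and the timing difference at least 1. By that rule 54 of the 163 windows were later and 4 earlier in NPCs, 35.6% in all against 32.5% of autosomal windows, of which 16.1% were later and 16.4% earlier. The 4 earlier windows were in Igh, 2 of them at chr12:114700001-114800000, where the mean difference was 1.22 and the call was lost without the F121-9 NPCs (difference of 0.82 in the window at chr12:114700001-114750000). At Tcrb, 2 windows with Trbc1 and Trbc2 fell by 1.05 on average, a call lost without the F121-6 ESCs. The 2 NPC lines came from the Cas129 and F121-9 ESCs, which are also among the 5 ESC lines, and the fit treats them as independent. With the parent line as a random block 57 windows were called, 56 of them among the 58. Over the 2 lines profiled in both states, with the line as a term, 60 were called, 51 of them among the 58, and the Tcrb call was lost (-0.80 in its window of largest difference).

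In MEFs, 66 windows were later and 5 earlier than in ESCs, 43.6% against 44.0% of autosomal windows, of which 13.7% were later and 30.3% earlier. The MEF scale itself was higher, with a median over all autosomal windows of 0.38 for MEF minus ESC, so the falls are opposite in sign to that median. The median difference of the 163 windows was -0.70. Of all called autosomal windows 68.8% were earlier in MEFs, against 39.5% with centred columns and 48.0% with quantile normalization. With each column centred on its autosomal median, 105 of the 163 windows were later and 0 earlier, and with quantile normalization 88 and 0. Of the 43941 autosomal windows, 12491 were later and 8167 earlier with centred columns, and 9788 and 9030 with quantile normalization. As deposited, 6030 autosomal windows were later and 13311 earlier, so the number of later windows also rose over the whole genome. Called windows by locus were 30 later in Igk, 16 later and 2 earlier in Igh, 20 later in Tcra/d and 3 earlier in Tcrb.

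The Igh stretch with the largest difference was later in every embryo than in every ESC line. At chr12:113850001-114500000, with 51 receptor genes from Ighv5-17 to Ighv10-2, the ESC lines were at -1.46 (Cas129), -1.32 (F121), -1.18 (F121-6), -0.98 (F121-9) and -1.91 (F123). The embryos were at -3.91, -3.65, -3.62 and -3.81 in the order of their numbers. The groups did not overlap. This stretch, like the others named, was picked by its difference between the groups, so their separation over it is no further support. In the window at chr12:114100001-114150000 MEFs were lower by -3.51 ± 0.27 (SE; limma, adjusted p = 9.1e-09). V6.5, an ESC line without a cas allele, was at -2.38 over that stretch and XEN cells at -3.10, between the 2 groups. In single ESC lines that window ranged from -0.91 (Cas129) to 0.40 (F121-6).

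The low-coordinate end of Igk, with 20 receptor genes at chr6:67500001-68050000, was at -1.18 ± 0.30 in ESCs (n = 5), -2.66 ± 0.09 in NPCs (n = 2) and -3.17 ± 0.19 in MEFs (n = 4). Its ESC lines spread from -1.52 (F123) to -0.73 (Cas129) and its embryos from -3.33 to -2.92, with a difference of -1.99 on average and of -2.27 ± 0.19 (SE; limma, adjusted p = 1.78e-08) in the window at chr6:67800001-67850000. In Tcra/d, chr14:53350001-53800000 with 45 receptor genes had 0.09 ± 0.37 in ESCs and -1.61 ± 0.07 in MEFs, and no ESC line (-0.25 to 0.67) reached the embryos (-1.70 to -1.54). XEN cells were at -0.21 there, within the range of the ESC lines, and at -2.80 in the Igk stretch, below every ESC line.

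A few windows were called earlier in MEFs, at the outer ends of Igh and Tcrb. The last 2 windows of the Igh V array, chr12:115900001-116000000 with 5 receptor genes, were at -1.80 ± 0.28 in ESCs, -2.76 ± 0.35 in NPCs and -0.54 ± 0.22 in MEFs. Beside them Zfp386, a zinc finger gene just outside the locus, went from -0.68 ± 0.10 in ESCs and -2.56 ± 0.12 in NPCs to 0.79 ± 0.17 in MEFs and was called in each of the 3 timing comparisons. At Tcrb, chr6:40850001-41050000 rose from -3.82 ± 0.33 in ESCs to -2.72 ± 0.08 in MEFs. Both of these MEF against ESC calls were lost with centred columns (0.85 for the Igh window and 0.51 for the Tcrb window of largest difference) and with quantile normalization (0.88 and 0.75).

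Between MEFs and NPCs, 11 windows were later and 8 earlier in MEFs, 11.7% against 33.3% of autosomal windows, of which 7.64% were later and 25.7% earlier. These counts changed with the scale, as did the share of all called autosomal windows that were earlier in MEFs, at 77.1% as deposited, 38.7% with centred columns and 50.6% with quantile normalization. With centred columns 76 were later and 2 earlier, and with quantile normalization 45 and 2. Of the 43941 autosomal windows, 9236 were later and 5832 earlier with centred columns, and 6554 and 6709 with quantile normalization. In Igh, chr12:115900001-116000000 was earlier in MEFs by 2.23 on average and by 2.72 ± 0.24 (SE; limma, adjusted p = 1.4e-07) in its last window. The later windows included chr6:68950001-69100000 in Igk, within the Igkv4 cluster, at -2.71 ± 0.61 in NPCs and -4.13 ± 0.27 in MEFs, and chr12:114650001-114800000 in Igh, at -1.33 ± 0.68 and -3.03 ± 0.36.

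Allelic differences were frequent in Igk and Igh. In ESCs 48 of the 163 windows were called, at an adjusted p under 0.05 and a size of 0.5 or more, which is 29.4% against 25.2% of autosomal windows. The 129 allele was earlier in 32 of them, against 13.2% of autosomal windows, and the Cas allele in 16, against 11.9%. Igk held 30 of the 48 (18 with 129 earlier), Igh 18 (14 with 129 earlier), and Tcra/d and Tcrb held 0 by limma. Of their windows 8 in Tcra/d and 0 in Tcrb had an unadjusted p below 0.05, and their differences lay between -0.48 and 0.32. The share of autosomal windows at that unadjusted level was not counted. Averaged over a whole locus the differences were small in ESCs, at 0.11 ± 0.20 for Igk, 0.27 ± 0.29 for Igh, -0.18 ± 0.11 for Tcra/d and -0.05 ± 0.16 for Tcrb (SD, n = 5), with stretches of opposite sign side by side.

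**Figure D3:**
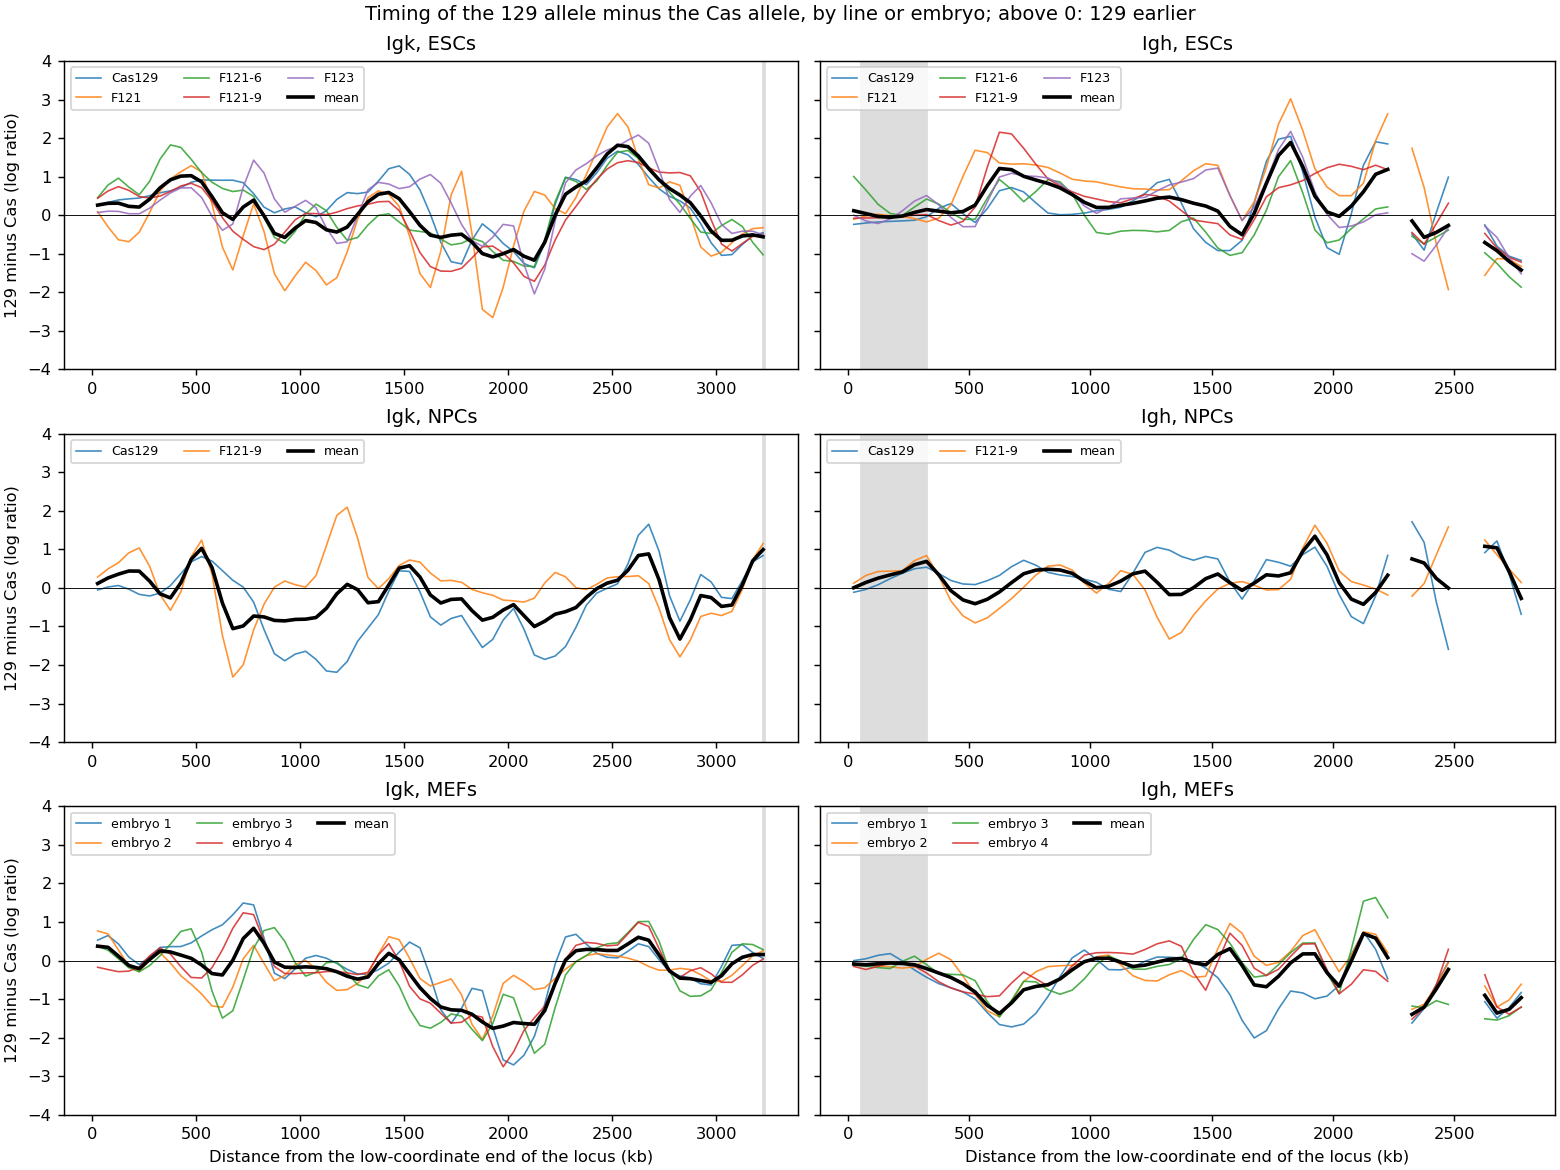
Timing of the 129 allele minus the Cas allele (log ratio) against the distance from the low-coordinate end of Igk and Igh in kb, for each ESC line, NPC line and MEF embryo (thin) and their mean (thick); grey marks the D, J and constant genes and gaps have no window. From 2300 to 2850 kb in Igk the 5 ESC lines average 1.03 to 1.37, and NPCs -0.01 and MEFs 0.21.

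The strongest Igk stretch in ESCs was chr6:69800001-70350000, which runs from Igkv12-44 to Igkv8-19 and holds 28 receptor genes. Its allelic difference was 1.03 in Cas129, 1.36 in F121, 1.04 in F121-6, 1.06 in F121-9 and 1.37 in F123, so that the line of the opposite parental configuration had the same sign and a like size. The 129 allele averaged -1.52 and the Cas allele -2.70. In the window at chr6:70000001-70050000 the difference was 1.82 ± 0.15 (SE; limma, adjusted p = 5.86e-07). NPCs had -0.01 ± 0.28 (n = 2) and MEFs 0.21 ± 0.18 (n = 4) over the same stretch, with both alleles near -3.05 in NPCs. The test of the difference between MEFs and ESCs called 10 windows in chr6:69850001-70400000, by -1.02 on average and by -1.55 ± 0.22 (SE; limma, adjusted p = 0.000162) in the window at chr6:70000001-70050000.

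Just below it lies a stretch in the Igkv4 cluster with the opposite sign. In ESCs, chr6:69300001-69650000 (Igkv4-68 to Igkv4-53) had the Cas allele earlier by 0.80 to 1.18 in the 5 lines, with -2.91 for 129 and -1.93 for Cas. Its window of largest difference, -1.17 ± 0.33 (SE; limma, adjusted p = 0.012), lost the call without F123, at -0.95. In MEFs the wider interval chr6:69150001-69700000 had -1.66, -0.91, -1.64 and -1.76 in embryos 1 to 4, with -3.24 for 129 and -1.75 for Cas, and ESCs had -0.83 ± 0.28 there. NPCs were not uniform, at -1.14 in Cas129 and -0.09 in F121-9.

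At the constant end of Igk the sign differed between ESCs and NPCs. The 2 windows at chr6:70650001-70750000, with Igkv3-5 to Igkc, had the Cas allele earlier in all ESC lines, from -0.86 (F121-6) to -0.33 (F121), and the 129 allele earlier in both NPC lines, at 0.76 in Cas129 and 0.94 in F121-9. The embryos were at 0.13, 0.19, 0.35 and -0.04. The difference between NPCs and ESCs averaged 1.38 and reached 1.55 ± 0.20 (SE; limma, adjusted p = 0.00033) in the Igkc window. Rpia (ribose 5-phosphate isomerase), the next gene beyond Igkc, had the same pattern, at -0.58 in ESCs and 0.85 in NPCs. MEFs differed from ESCs by 0.67 on average over chr6:70600001-70750000, and that call was lost without embryos 1 and 3, whose sex labels did not match, with a value of 0.70 in the Igkc window.

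In Igh, a stretch overlapping the one that was later in MEFs also carried an allelic difference. Over chr12:113700001-114150000, with Ighv5-12 to Ighv9-3, the 129 allele was earlier in every ESC line, by 0.26 (Cas129), 1.32 (F121), 0.58 (F121-6), 1.23 (F121-9) and 0.72 (F123). The embryos had the opposite sign, at -1.11, -0.66, -0.84 and -0.60. The 129 allele went from -1.22 in ESCs to -3.83 in MEFs and the Cas allele from -2.04 to -3.03. The change in allelic difference was -1.63 on average and -2.59 ± 0.29 (SE; limma, adjusted p = 2.24e-05) in the window at chr12:113800001-113850000. NPCs lay between, at 0.39 in Cas129 and -0.06 in F121-9.

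At the V end of Igh, chr12:115800001-116000000 with 14 receptor genes, ESCs and MEFs had the Cas allele earlier and NPCs, averaged over the 4 windows, the 129 allele. The ESC lines were at -0.82 (Cas129), -1.29 (F121), -1.42 (F121-6), -0.91 (F121-9) and -0.87 (F123), the embryos at -1.15, -0.88, -1.42 and -1.04, and the NPCs at 0.45 (Cas129) and 0.68 (F121-9). These NPC averages did not overlap those of the other groups. In the last 2 of the windows, chr12:115900001-116000000, the NPCs were at -0.16 (Cas129) and 0.32 (F121-9). The difference of NPCs from ESCs was 1.63 on average and 1.96 ± 0.21 (SE; limma, adjusted p = 0.00012) in the window at chr12:115850001-115900000. Zfp386 next to it did not share the NPC sign, with -1.07 in ESCs, -1.14 in NPCs and -0.58 in MEFs, and was called in all 3.

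A narrower Igh stretch was less even. At chr12:114900001-115100000 (Ighv1-38 to Ighv8-5) the ESC lines had 1.64, 2.21, 0.78, 0.72 and 1.57 for Cas129, F121, F121-6, F121-9 and F123, and the window at chr12:115000001-115050000 a difference of 1.89 ± 0.25 (SE; limma, adjusted p = 3.52e-05). In MEFs embryo 1 stood apart at -1.18, against -0.02 to 0.18 in the other 3. NPCs differed from ESCs in that window by -1.50, with an adjusted p of 0.0416 by limma, and the call was lost when Cas129 ESCs, F123 ESCs or either NPC line was left out.

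In MEFs 36 windows were called, 22.1% against 12.9% of autosomal windows. The Cas allele was earlier in 34, against 7.36% of autosomal windows, and the 129 allele in 2, against 5.5%. Of the 34, 11 were in Igk, 15 in Igh and 8 in Tcra/d. Without embryos 1 and 3, which leaves embryos 2 and 4, the count fell to 8. With 1 embryo left out at a time it was 24, 36, 24 and 27, in the order of their numbers. The whole-locus difference was below 0 in all 4 embryos for Igk (-0.28 ± 0.12), Igh (-0.35 ± 0.18) and Tcra/d (-0.46 ± 0.28), and in 3 of 4 for Tcrb (-0.07 ± 0.15).

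In Tcra/d allelic differences were called in NPCs and MEFs and not in ESCs. Over the whole locus all 5 ESC lines were below 0 as well, at -0.18 ± 0.11. The change of the allelic difference from ESCs to MEFs was called in 1 of 30 windows, 3.33% against 27.4% of autosomal windows. That from ESCs to NPCs was called in 6 of 30, 20.0% against 16.1%. In NPCs, chr14:53350001-53500000 (Trav16n to Trav6-5) had -1.73 in Cas129 and -2.26 in F121-9, with -2.27 for the 129 and -0.28 for the Cas allele, and a difference of -2.27 ± 0.33 (SE; limma, adjusted p = 0.00341) in the window at chr14:53350001-53400000. In ESCs the 5 lines had from -0.75 to 0.21 over that stretch. The embryos separated into 2 and 2, at -1.76 (embryo 1) and -1.33 (embryo 4) against -0.33 (embryo 2) and 0.07 (embryo 3). Embryos 1 and 4 are those with the low SD on the 129 X chromosome, and the part of that difference in this result was not tested. NPCs differed from ESCs by -1.74 over chr14:53350001-53450000, a call lost without the F121-9 NPCs, and all 7 called Tcra/d windows in NPCs had the Cas allele earlier.

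In NPCs 12 windows of the 4 loci were called, 7.36% against 4.71% of autosomal windows, 8 with the Cas allele earlier (2.24% of autosomal windows) and 4 with the 129 allele earlier (2.47%). A fit of the 2 NPC lines alone left 0 called by limma, with 51 at an unadjusted p below 0.05. The share of autosomal windows at that unadjusted level was not counted, so the 51 cannot be set against it. A fit of profiles with a replicate block called 2. With Cas129 as the only NPC line 4 were called, of which 1 was among the 12, and with F121-9 as the only one 8 were called, 6 of them among the 12. A lone line is there assumed to vary like the other groups. The single Igk window at chr6:70300001-70350000, at -0.86 in Cas129 and -1.79 in F121-9, was among those lost. The allelic difference itself changed between MEFs and ESCs in 33 windows (20.2% against 27.4% of autosomal windows), 30 lower against 15.1% and 3 higher against 12.3%, and between NPCs and ESCs in 26 (16.0% against 16.1% of autosomal windows), 20 lower against 8.03% and 6 higher against 8.04%. These comparisons share the ESC lines. With the parent line as a random block the same 26 were called from ESCs to NPCs. With the line as a term over the 2 lines profiled in both states, which leaves 1 residual degree of freedom, 4 of the 26 were called. The Igh window at chr12:115850001-115900000 and the Tcra/d window of largest difference kept their calls, and those of Igk, Igkc, Rpia, Eif2ak3 and the Igh window at chr12:115000001-115050000 did not.

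**Figure D4:**
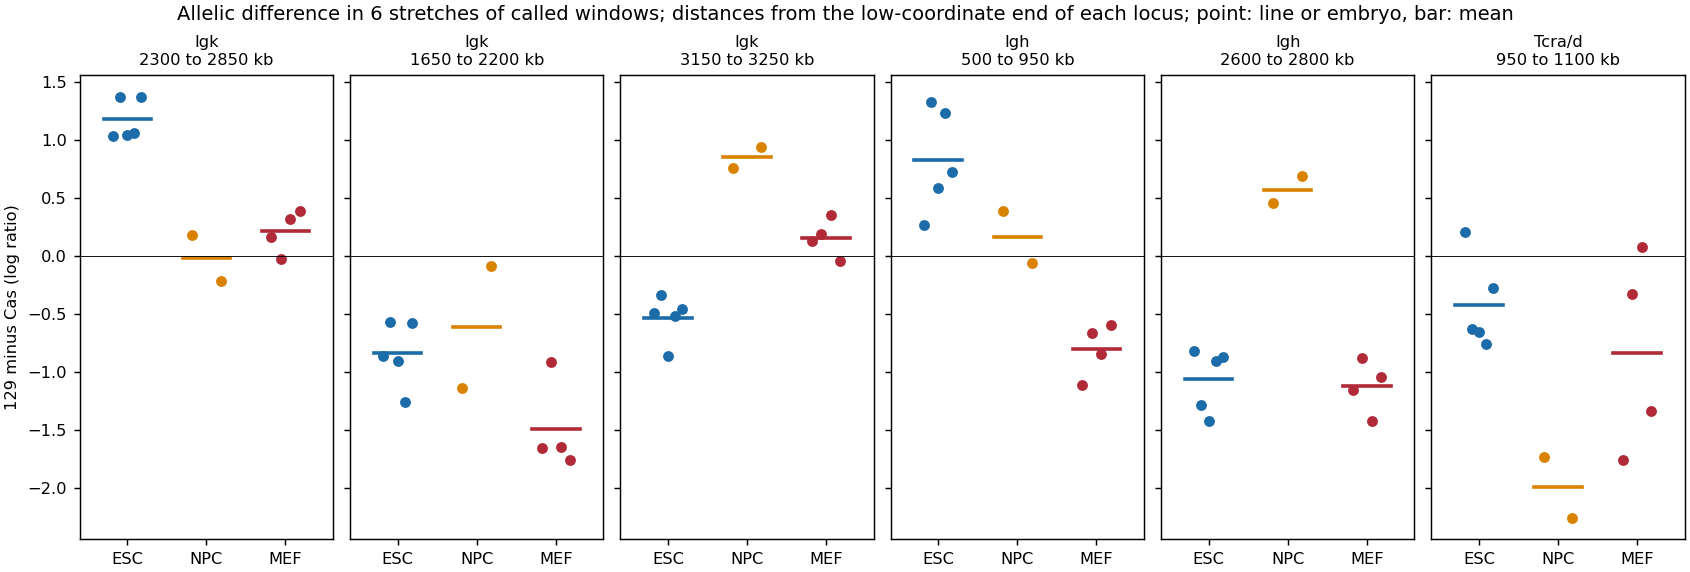
Allelic difference (129 minus Cas, log ratio) averaged over 6 stretches of called windows, named above each panel by locus and distance from its low-coordinate end in kb; each point is an ESC line, NPC line or MEF embryo and each bar a mean. NPC points stand on the other side of 0 from the ESC points at the constant end of Igk and at the V end of Igh, and MEF points do at 500 to 950 kb in Igh.

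Allelic differences in Igk, Igh and Tcrb were also more spread over the ESC line means than in autosomal windows at large. The SD of the allelic difference between ESC lines had a median of 0.48 over Igk windows, 0.50 over Igh and 0.47 over Tcrb windows, against 0.28 over Tcra/d and 0.29 over all autosomal windows. In MEFs these medians were 0.37, 0.34, 0.19 and 0.26, against 0.18 for all autosomal windows. Igk, Igh and Tcrb are also the late loci, and the part of late timing in this spread was not tested. The spread of line means also holds differences between profiles of 1 line, and F121 has 1 profile. Over Igh the 2 Cas129 ESC profiles were at -1.47 and -1.91 for the 129 allele, and at -1.91 and -1.78 for the Cas allele. Variation between lines was not separated from variation between profiles.

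V gene families sit in different parts of the arrays. Ighv3, inside the Igh stretch at chr12:113850001-114500000, had -1.02 ± 0.44 in ESCs (n = 5), -3.72 ± 0.34 in NPCs (n = 2) and -3.76 ± 0.17 in MEFs (n = 4), while Ighv1, the largest family with 90 members, had -2.44 ± 0.23, -2.52 ± 0.23 and -2.73 ± 0.25. In Igk, Igkv3 next to the constant gene was the earliest family, at -0.78 ± 0.27, -1.83 ± 0.12 and -1.29 ± 0.26, and Igkv12 among the latest, at -2.81 ± 0.18, -3.33 ± 0.59 and -3.81 ± 0.25. The Igkv8 family had the 129 allele earlier by 1.00 ± 0.16 in ESCs, and by 0.05 ± 0.17 in MEFs. The Igkv4 family, 33 members in 19 windows, had -0.45 ± 0.31 in ESCs and -1.04 ± 0.34 in MEFs. Families share windows and are not independent of each other or of the stretches above.

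Culture on feeders moved parts of the loci earlier. In F121-6 and F121-9, each with 2 profiles in 2i and 2 on feeders, 21 windows were called earlier on feeders and 0 later by limma. That is 12.9% against 12.8% of autosomal windows, of which 4.92% were earlier and 7.86% later. At an unadjusted p below 0.05, 35 were earlier and 6 later, and autosomal windows were not counted at that level. Of all called autosomal windows 38.5% were earlier on feeders, and 52.8% with centred columns, where the 4 loci had 22 earlier and 0 later. With centred columns 3066 of the 43941 autosomal windows were earlier and 2740 later. The stretch with the largest mean difference was chr6:69000001-69600000 in the Igkv4 cluster, at -2.79 and -2.79 in F121-6 and -3.26 and -3.44 in F121-9 in 2i. On feeders it was at -1.73 and -1.90 in F121-6 and -1.85 and -1.69 in F121-9, above every 2i profile. The difference averaged 1.28 and was 1.75 ± 0.33 (SE; limma, adjusted p = 0.00497) in the window at chr6:69100001-69150000. In Tcra/d, chr14:52450001-52700000 (Trav2 to Trav7d-2) rose by 0.87 on average, from -0.34 to -0.01 in 2i profiles to 0.45 to 0.96 on feeders. In Igh 2 windows at chr12:115100001-115200000 rose, by 1.26 ± 0.32 (SE) in the first of them (limma, adjusted p = 0.0226), with 1 F121-6 profile in 2i at -4.04 and the other 3 in 2i from -3.49 to -2.68. That call was lost without the second F121-6 feeder profile. Of the 8 profiles, 4 come from each line, so the p-values cover the spread between profiles of 2 lines.

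V6.5 ESCs gave another pair of alleles, 129 and C57B6. In Igk the 2 alleles were nearly the same, within 0.1 of each other in 64 of 65 windows, and in Tcrb in 12 of 15. Genome-wide 74.0% of autosomal windows were that close in V6.5, against 15.0% to 19.8% in the hybrid 129/cas ESC lines. Igh and Tcra/d stood apart from that: 25 of 53 Igh windows and 10 of 30 Tcra/d windows differed by at least 0.5, against 3.68% of autosomal windows in V6.5. At chr12:114150001-114200000 in Igh the 129 allele was at -0.85 and the C57B6 allele at -2.87, and the 129 mean of the hybrid ESC lines was -0.25 in that window. At chr14:52750001-52800000 in the Tcra V array they were at -0.20 and -2.24. The late part of the Igh V array reached -5.90 at chr12:115300001-115350000 in V6.5, where the 5 hybrid lines averaged -1.65 ± 0.31 (SD). This is 1 profile with no replicate. The median size of the difference between its alleles was 0.012 in Igk, 0.025 in Tcrb and 0.029 over all autosomal windows. With ratios only, how many reads told the 2 alleles apart is unknown. Whether the near-equal values in Igk and Tcrb are separate measurements of 2 alleles was not tested.

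**Figure D5:**
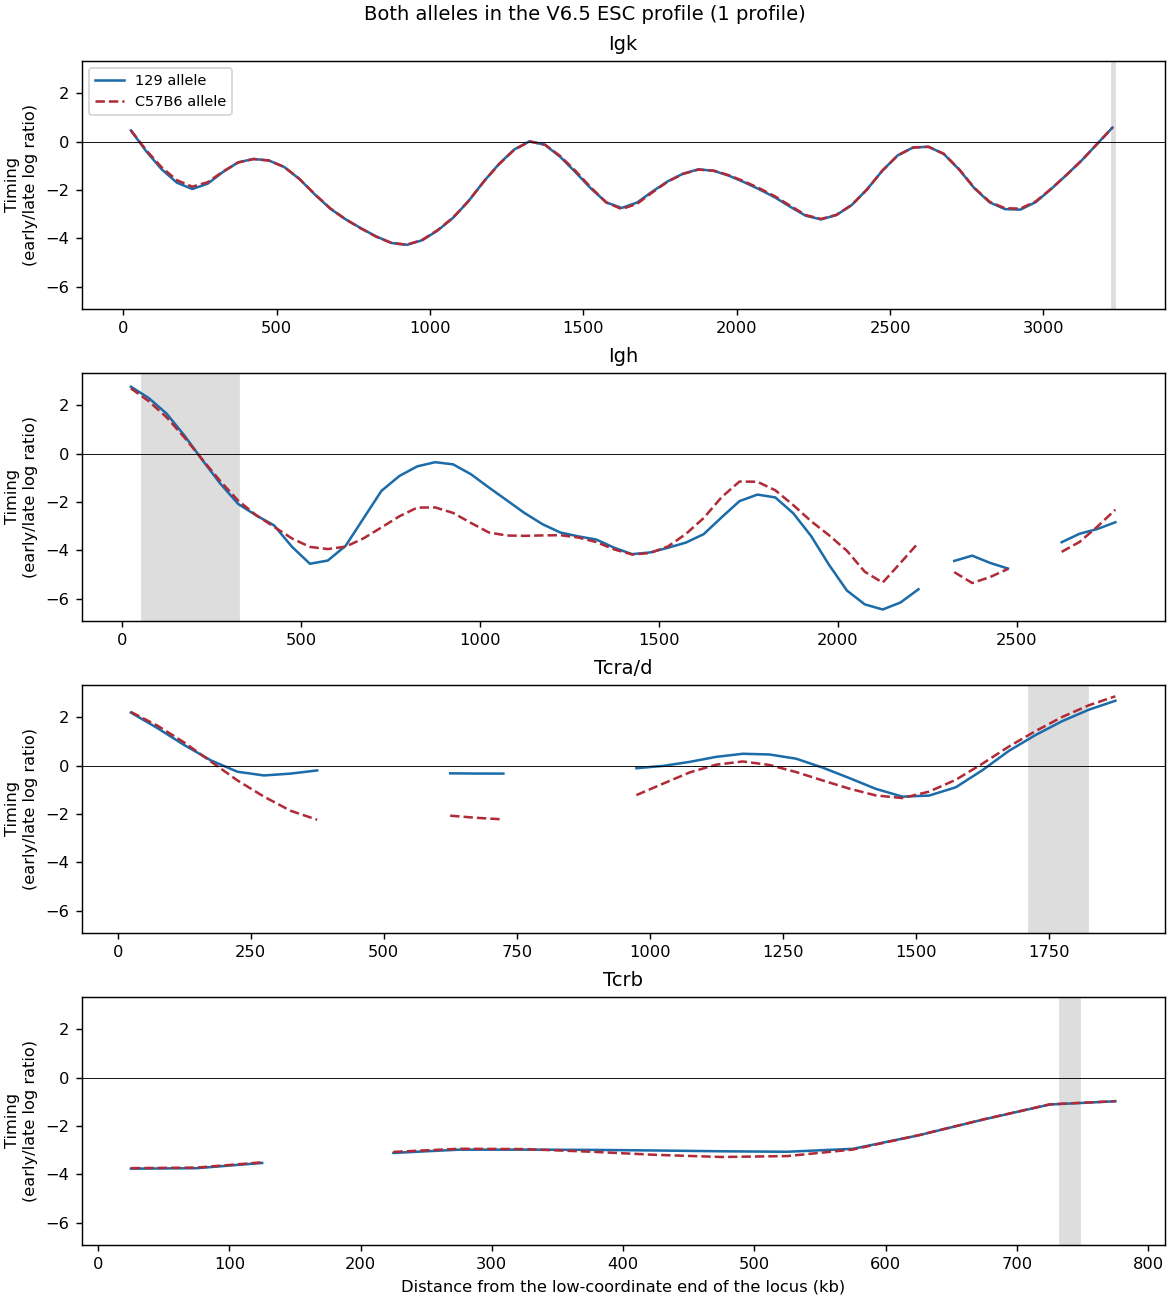
Timing (early/late log ratio) of the 129 allele and of the C57B6 allele in the single V6.5 ESC profile against the distance from the low-coordinate end of each locus in kb; grey marks the D, J and constant genes and gaps have no window. The lines lie on each other in Igk and Tcrb and part in the V arrays of Igh and Tcra/d.

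In XEN cells, C57B6 minus Cas was at least 0.5 in size in 31 of 65 Igk windows, 30 of 53 Igh windows, 6 of 30 Tcra/d windows and 5 of 15 Tcrb windows, against 32.8% of autosomal windows. The 2 XEN profiles agreed to different degrees on these differences, with a Pearson correlation across windows of 0.69 in Igh, 0.89 in Tcrb, 0.35 in Igk and 0.08 in Tcra/d, and 0.57 over all autosomal windows. Neighbouring windows are not independent, and these are descriptions.

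The remaining receptor loci, Igl and Tcrg, were each seen through 1 window. The window of Iglc1 and Iglv1 (lambda light chain constant and variable genes) that starts at chr16:19050001 had the 129 allele earlier in all 3 cell types, by 2.03 ± 0.19 in ESCs (SD, n = 5), 1.85 ± 0.55 in NPCs (n = 2) and 1.54 ± 0.11 in MEFs (n = 4). Its adjusted p by limma was 2.81e-08 in ESCs, 0.00039 in NPCs and 7.58e-06 in MEFs. That window timed at 0.11 ± 0.29 in ESCs, -1.65 ± 0.03 in NPCs and -0.55 ± 0.24 in MEFs. The window of Trgc1 (gamma chain constant) was not called for an allelic difference, at -0.04 in ESCs, -0.21 in NPCs and 0.09 in MEFs, and fell from -0.12 ± 0.51 in ESCs to -2.07 ± 0.03 in NPCs and -2.37 ± 0.10 in MEFs.

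Genes of V(D)J recombination and lymphocyte receptor signalling, a list of 30 in 27 windows, were above 0 in ESCs for 25 genes, in NPCs for 26 and in MEFs for 28. The median autosomal window was at -0.68 in ESCs, -0.68 in NPCs and -0.02 in MEFs, so the MEF count stands on a higher scale. The share of other gene windows above 0 was not counted. Compared with ESCs, 5 genes of the list were earlier and 3 later in NPCs, and 7 were earlier and 2 later in MEFs. Of autosomal windows, 16.4% were earlier and 16.1% later in NPCs, and 30.3% and 13.7% in MEFs, on the deposited scale. Rag1 and Rag2, the recombinase itself, share a window at -1.29 ± 0.34 in ESCs, 0.92 ± 0.07 in NPCs and 1.49 ± 0.20 in MEFs. Their 129 allele was earlier by 0.71 in ESCs. Bcl11b, a T cell commitment factor, moved from -0.14 ± 0.18 to 1.91 ± 0.55 and 1.56 ± 0.23. Prkdc, the DNA-dependent protein kinase of end joining, moved the other way, from 1.85 ± 0.21 to -0.93 ± 0.45 and -0.11 ± 0.16. Ikzf1, a lymphoid transcription factor, had the Cas allele earlier by 1.21 in MEFs and no call in ESCs, at 0.11. The signalling genes Cd79a, Cd79b, Cd3d, Cd3e, Cd3g and Zap70 were above 2 in all 3 cell types and were not called in any timing comparison.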

How the data were processed

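Per the labels' protocols, BrdU-labelled DNA of early and late S phase was sequenced, and per the submitters' processing notes Bowtie2, SAMtools and bedtools were used with build mm10; their versions are not given in the sources used here. The authors deposited log ratios of early to late reads per allele in 50 kb windows, read here as log2 values, with no counts, so depth is unknown and neighbouring windows are not independent. The members and gene lists were chosen with earlier results of these data known. Profiles were averaged per line or embryo. Differences were fitted with limma 3.58.1 (R 4.3.3) over 43941 autosomal windows with Benjamini-Hochberg adjustment, for ESCs, NPCs and MEFs together. Called windows had an adjusted p under 0.05 and a size of 0.5 or more (alleles, culture) or 1 or more (timing between cell types). The fits were tested on simulated data. The stretches named are, for each comparison, locus and direction, the run of called windows with the largest mean difference, allowing gaps of 2 windows; genes named otherwise come from lists of constant genes, neighbours, other receptor loci, recombination genes and cell type markers, of which 1 marker is not reported here. V families and the single V6.5 windows were chosen after their values were seen. Feeders and 2i were compared over 8 profiles with the line as a term. Alternatives were centred columns, quantile normalization, no minimum size, fewer samples, profiles in place of line means, and leaving out each line or embryo. The parent line of the NPCs, as a random block (consensus correlation -0.29 for timing and -0.03 for allelic differences) or as a term, was added after seeing the data.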

Additional observations from a re-analysis of the deposited data

Results flagged for a closer look

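Of 80 groups of 4 or 5 lines or embryos checked for 1 value far from the others, 4 had one, and chance gives about 1 in 20. Embryo 1 had an allelic difference of -1.18 over Igh chr12:114900001-115100000, against -0.02 to 0.18 in the other embryos, and of -0.79 at chr12:115000001-115050000, a window within it, against 0.11 to 0.24. Embryo 2 had -0.91 over Igk chr6:69150001-69700000, against -1.76 to -1.64, and a timing of -2.49 over Igh chr12:114650001-114800000, against -3.22 to -3.19.

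The allelic difference itself differed between cell types, by the limma test of that difference, in 18 stretches. The 9 given here have the largest mean difference for their comparison, locus and direction. From ESCs to MEFs it changed by 0.67 at Igk chr6:70600001-70750000, by -1.02 at Igk chr6:69850001-70400000, by -1.63 at Igh chr12:113700001-114150000 and by -0.76 at Tcra/d chr14:53650001-53700000. From ESCs to NPCs it changed by 1.38 at Igk chr6:70650001-70750000, by -1.49 at Igk chr6:70250001-70400000, by 1.63 at Igh chr12:115800001-116000000, by -1.50 at Igh chr12:115000001-115050000 and by -1.74 at Tcra/d chr14:53350001-53450000.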

How the results depend on the processing

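No named window or count changed direction under the alternatives run. In NPCs 3 locus means, which have no test, did change sign: timing of Tcra/d (-0.30, and 0.35 with centred columns), the allelic difference of Tcrb (-0.04, with a median of 0.12 and 0.04 without F121-9) and that of Igk (-0.20, and 0.05 without Cas129). Of 9 counts of called windows, the allelic count in MEFs fell from 36 to 8 and that of MEFs against ESCs from 33 to 20 without embryos 1 and 3. That setting leaves only embryos 2 and 4 as MEFs. The allelic NPC count of 12 became 21 with quantile normalization, 0 with only the NPC lines fitted, 2 with profiles and a replicate block, and 4 to 8 when a line was left out. The timing count of MEFs against ESCs rose from 71 to 114 with no minimum size. That of MEFs against NPCs rose from 19 to 78 with centred columns, 47 with quantile normalization and 54 with no minimum size, and ran from 18 to 41 with a line or embryo left out. With the parent line as a term over the 2 lines profiled as ESCs and NPCs, an alternative chosen after seeing the data, the allelic count from ESCs to NPCs fell from 26 to 4. Leaving out a line or profile gave 16 to 28 for the allelic change from ESCs to NPCs and 13 to 25 for feeders against 2i. Replicate numbers did not pair the samples: between groups, deviations of same-numbered profiles correlated by -0.07 to 0.04 for allelic differences and -0.40 to 0.30 for timing.

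Mean timing of a locus depended on the scale. With centred columns ESCs had -1.51 in Igk, -1.14 in Igh, 1.23 in Tcra/d and -2.44 in Tcrb, and NPCs -2.08, -1.76, 0.35 and -2.67. With quantile normalization ESCs had -1.98 in Igk, -1.62 in Igh and 0.74 in Tcra/d, NPCs -2.28 in Igh, and MEFs -2.63 in Igh, -0.92 in Tcra/d and -2.94 in Tcrb. Medians over windows were -2.35 in Igk, -2.10 in Igh and 0.20 in Tcra/d in ESCs, -2.93 in Igh and -0.74 in Tcra/d in NPCs, and -3.63, -2.91, -1.11 and -2.74 in the 4 loci in MEFs. The causes were not tested. Unknown depth and 2 NPC lines limit precision.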
